A study of Mus musculus with 16 samples.

Results

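The 26 genes described here are enzymes of cholesterol synthesis and other genes controlled by SREBP2, with SREBP2 itself and the proteins that hold or move it. They were taken by symbol as members of the pathway, not for their values, and all 26 were found among 18670 named genes tested. Each was read from its brightest probe as the Cy3 intensity of 16 one-colour mouse arrays. The 16 arrays cross 4 genotypes with 2 tissues and 2 diets, with a single array in each cell of that design. The genotypes were WT and mice labelled STAT4-/-, STAT6-/- and HDC-/-. STAT4 and STAT6 are transcription factors of cytokine signalling and HDC is the enzyme that makes histamine. The cells were CD11b+ cells, a gate that takes mainly neutrophils and monocytes, from spleen or bone marrow of mice labelled male. They had been fed a normal diet (the control) or, as a model of atherosclerosis, kept on a high-fat diet (HFD) for 3 months. RNA of each array was a pool from 5 mice. The age and the strain of the mice, the type of each deletion and the composition of the diets are not given in the sources used here.

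SREBP2 (gene Srebf2) is made as a protein of the endoplasmic reticulum membrane, where SCAP binds it. When sterol in that membrane is plentiful, INSIG1 and INSIG2 hold the complex of SCAP and SREBP2 in place. When sterol is scarce, SCAP carries SREBP2 to the Golgi, where proteases release the part that enters the nucleus and raises transcription of the pathway. That pathway runs from acetyl-CoA through mevalonate and isoprenoids to squalene, lanosterol and cholesterol, and INSIG1 is itself a target, which closes a feedback loop. In myeloid cells it supplies membrane for dividing precursors and is set against uptake and export of cholesterol.

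Promoter sequence was available for 22 of the 26 genes, as RefSeq windows of 300 bases on build GRCm38.p6, with 250 bases before and 50 after the annotated start. Fdft1, Fdps, Sqle and Stard4 were not matched. A sterol regulatory element was searched as TCACNCCAC and the box bound by NF-Y, a factor known to act beside SREBP2, as CCAAT, each on both strands and with no overlap between the 2 motifs in the windows shown. TCACNCCAC was found in 1 of 22 genes (Hmgcs1), against 1.44% of 27025 genes with a promoter in the table. CCAAT was found in 20 of 22 genes (90.9%), against 41.1% of all genes and 42.9% of 10281 genes above background on all 16 arrays. The single form TCACCCCAC was found in the same gene, against 0.614% of all genes, and the shorter CACNNCAC, which overlaps TCACNCCAC, in 7 of 22 (31.8%) against 18.2%. Matches describe these windows alone. The windows of 3 genes on which the results turn are shown: Insig1, called higher in spleen and the gene with the smallest diet p in marrow, Hmgcs1, the enzyme that makes HMG-CoA and the one gene with both motifs, and Hsd17b7, the gene that differed most between tissues. Capitals mark the motifs as they read on the printed strand (TCACCCCAC, and CCAAT or its reverse complement ATTGG).
Insig1, chr5:28071162-28071461 (+ strand): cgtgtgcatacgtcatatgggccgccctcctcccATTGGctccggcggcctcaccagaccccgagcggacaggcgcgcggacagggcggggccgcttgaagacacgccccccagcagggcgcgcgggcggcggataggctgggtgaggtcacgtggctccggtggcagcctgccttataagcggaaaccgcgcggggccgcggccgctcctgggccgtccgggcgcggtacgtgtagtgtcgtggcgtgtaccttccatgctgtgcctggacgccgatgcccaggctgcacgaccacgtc
Hmgcs1, chr13:119690101-119690400 (+ strand): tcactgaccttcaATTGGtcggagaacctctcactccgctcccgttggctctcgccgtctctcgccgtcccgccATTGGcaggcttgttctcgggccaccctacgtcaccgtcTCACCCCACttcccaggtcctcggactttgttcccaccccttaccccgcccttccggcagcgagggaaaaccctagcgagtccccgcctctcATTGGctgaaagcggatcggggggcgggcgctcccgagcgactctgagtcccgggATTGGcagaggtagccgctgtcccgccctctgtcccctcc
Hsd17b7, chr1:169969156-169969455 (- strand): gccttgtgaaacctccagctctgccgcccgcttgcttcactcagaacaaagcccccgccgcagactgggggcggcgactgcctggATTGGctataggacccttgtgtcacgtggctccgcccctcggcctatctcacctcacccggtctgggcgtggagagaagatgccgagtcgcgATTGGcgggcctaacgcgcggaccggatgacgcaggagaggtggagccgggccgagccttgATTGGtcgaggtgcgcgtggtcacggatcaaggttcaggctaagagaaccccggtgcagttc

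In these windows the Insig1 promoter holds 1 CCAAT match, with its first base at -216 from the start. The Hmgcs1 window holds the TCACNCCAC match at -137 and 4 CCAAT matches, at -237, -176, -45 and 10. The Hsd17b7 window holds 3 CCAAT matches, at -165, -73 and -12.

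Levels below are log2 of the intensity relative to the 75th percentile of the array, so a level of 0 is a signal as bright as that percentile, and levels are compared within a gene only. All 26 genes were well above background on all 16 arrays, as were 18008 of 28783 features tested. The share of probes above background ran from 59.9% to 85.3% over the arrays, and no member's spot was saturated. Itgam, which encodes CD11b, read 3.10 to 6 on every array. Hdc read 0.93 to 1.87 on the 4 HDC-/- arrays and 4.02 to 5.74 on the 12 others, without overlap, from a probe left out of the fit for 1 flagged spot. Stat4 and Stat6 did not separate their arrays. Stat4 read 0.37 and 0.52 on the control diet and 2.70 and 3.46 on HFD on the arrays labelled STAT4-/-, against -0.93 to 1.28 elsewhere, so they are named by that label throughout. Stat6 read 2.51 to 2.99 on STAT6-/- arrays and 2.29 to 4.09 elsewhere. No label says whether these probes lie in the deleted parts. The HFD spleen array labelled STAT4-/- correlated more closely with marrow arrays (mean r 0.97) than with spleen arrays (0.947), and the control-diet marrow array of HDC-/- more with spleen (0.954) than with marrow (0.947). The 4 control-diet arrays of these 2 genotypes had low Y-linked signal, although the mice are labelled male. The counts of genes called between tissues and of marrow diet differences are given with and without these arrays. For single genes this is done for some values only.

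Did the pathway differ between spleen and marrow? Most of its enzymes gave lower signal in spleen. The signal was lower in spleen for 21 of 26 genes, with a median difference of -0.40, against -0.05 for all features and -0.19 for those above background on all arrays. The other 5 genes read higher, as did 6875 of 18008 features above background on all arrays. Among the genes lower in spleen, a second probe gave 0.06 for Srebf2, 0.12 for Pmvk and 0.20 for Insig2. The second probes of Nsdhl, Acly, Hsd17b7, Lbr, Fdft1, Tm7sf2, Stard4 and Mvk also read lower in spleen. With limma and Benjamini-Hochberg adjustment over all features, 7 genes were called lower and 1 higher in spleen. Of all features, 16.8% were called lower and 15.1% higher, and of features above background on all 16 arrays, 23.3% and 13.9%. The 7 of 26 genes called lower therefore stood near the background of well-measured features. Lower signal in spleen in all 8 matched pairs was seen for 5 genes, against 8.89% of all features and 12.9% of those above background on all arrays. In bulk RNA of sorted cells, fewer cells of a type and less RNA per cell cannot be told apart.

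**Figure D1:**
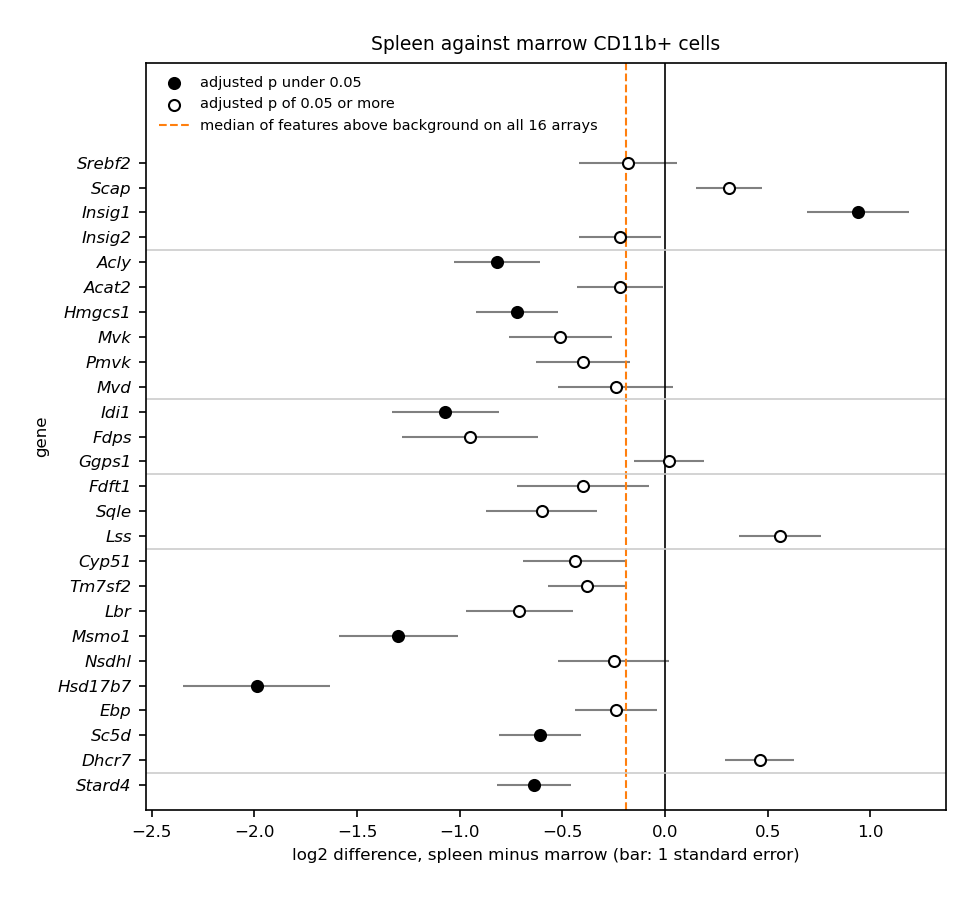
Log2 difference between spleen and marrow (x axis) for each of the 26 genes (y axis, ordered along the pathway), with bars of 1 standard error from the limma fit over 16 arrays. Filled points are the 8 genes with an adjusted p under 0.05, from Hsd17b7 at -1.99 to Insig1 at 0.94, and the dashed line is the median of well-measured features at -0.19.

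The largest difference was that of Hsd17b7, a ketoreductase of the demethylation steps after lanosterol. On the control diet Hsd17b7 read -2.39 in WT, -1.49 in the STAT4-/- label, -1.47 in STAT6-/- and -2.62 in HDC-/- spleen, and -1.99, -0.95, -2.17 and -0.95 on HFD. Marrow Hsd17b7 read -0.11, 0.40, 0.88 and -1.46 on the control diet and 0.33, -0.13, 0.81 and 1.18 on HFD. Spleen was below marrow in every pair, and the ranges met only through the HDC-/- control-diet marrow array. The difference was -1.99 (SE 0.36; 3.97-fold; limma adjusted p 0.0037), and a second probe gave -1.90.

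Msmo1, the sterol methyl oxidase of the same demethylation steps, read 1.34, 1.5, 1.57 and 1.03 in spleen on the control diet, in the same order of genotypes, and 1.20, 2.66, 1.35 and 1.99 on HFD. In marrow it read 3.10, 2.89, 3.02 and 1.62 on the control diet and 2.59, 2.77, 3.57 and 3.53 on HFD. Its highest spleen value was on the STAT4-/- label HFD array and its lowest marrow value on the HDC-/- control-diet array, the same 2 arrays that stood apart. The difference was -1.30 (SE 0.29; adjusted p 0.00842), with spleen lower in 8 of 8 pairs. Sc5d, a sterol desaturase of the last steps, ran from 0.34 to 1.71 in spleen and from 0.79 to 1.83 in marrow, and its difference of -0.61 (SE 0.20; adjusted p 0.0415) was the weakest of those called. Sc5d lost its call under quantile normalization (adjusted p 0.0563).

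Among the enzymes up to the isoprenoids, Acly, which makes cytosolic acetyl-CoA from citrate, was 0.82 lower in spleen on the log2 scale (-0.82, SE 0.21; adjusted p 0.0167; 7 of 8 pairs). Its levels were 3.42 to 4.39 in spleen and 3.94 to 5.01 in marrow. Hmgcs1 ran from 0.72 to 1.77 in spleen (median 1.03) and from 1.17 to 2.56 in marrow (median 1.91), a difference of -0.72 (SE 0.20; adjusted p 0.0229; 7 of 8 pairs). Idi1, the isomerase that opens the isoprenoid branch, read 0.91, 1.62, 1.46 and 0.96 in spleen on the control diet and 1.04, 1.60, 0.96 and 1.26 on HFD. In marrow it read 2.13, 2.68, 2.44 and 1.45, and 1.40, 2.19, 2.95 and 3.11. Idi1 had a difference of -1.07 (SE 0.26; adjusted p 0.0136; 8 of 8 pairs). The 2 tissues overlapped for Acly, Hmgcs1 and Idi1, as they did for all 8 called genes. Fdps, the next enzyme, was lower in 8 of 8 pairs but missed the threshold (-0.95, SE 0.33; adjusted p 0.0521). Stard4, a carrier of cholesterol between membranes, ran from -0.16 to 0.30 in spleen and from -0.11 to 1.37 in marrow (-0.64, SE 0.18; adjusted p 0.0212; 8 of 8 pairs).

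Insig1 ran the other way. Its signal was higher in spleen by 0.94 (SE 0.25; 1.92-fold; adjusted p 0.0179), in 6 of 8 pairs. Spleen Insig1 read -0.08 in WT, 0.81 in the STAT4-/- label, -1.30 in STAT6-/- and -1.41 in HDC-/- on the control diet, and -0.18, -0.23, -1.01 and -0.88 on HFD. Marrow Insig1 read -2.53, -1.86, -2.78 and -1.79 on the control diet and -0.64, -0.05, -2.42 and 0.27 on HFD. On the control diet every spleen array lay above every marrow array, with pair differences of 2.44, 2.67, 1.48 and 0.38. On HFD the pair differences were 0.46, -0.18, 1.41 and -1.14, so the tissues overlapped. The other genes of SREBP2 control were not called: Srebf2 differed by -0.18 (SE 0.24), Scap by 0.31 (SE 0.16) and Insig2 by -0.22 (SE 0.20). Lss and Dhcr7, which close the sterol ring and perform the final reduction, also read higher in spleen without passing the threshold (0.56, SE 0.20, adjusted p 0.0581, and 0.46, SE 0.17, adjusted p 0.0632).

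The calls rested on few arrays. Without the 2 arrays nearer the other tissue, 14 of the 26 genes were called, against 38.5% of all features. Without the 4 arrays of low Y-linked signal, 2 were called (Hsd17b7 and Msmo1), against 12.9% of all features. Insig1 lost its call without any 1 of 4 arrays (adjusted p 0.0507 to 0.0565) and Sc5d without any 1 of 12. Acly lost its call without any 1 of 4 arrays, Stard4 without any 1 of 6 and Hmgcs1 without any 1 of 7. Idi1, Msmo1 and Hsd17b7 kept theirs with any single array left out. Leaving out single arrays gave 3 calls without the control-diet marrow array of WT or of the STAT4-/- label, 4 without the HFD spleen array of WT or the control-diet spleen array of the STAT4-/- label and 5 without the HFD spleen array of STAT6-/-, with 20.0% to 21.6% of all features called in these 5 fits. Each slide, as inferred from the scan date in the file headers, held 1 tissue only, so slide and tissue cannot be told apart. The spread behind the tissue p-values holds no differences between slides. With slide as a random block 10 genes were called, against 29.9% of all features, and that fit does not separate slide from tissue.

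Markers of dividing cells also gave lower signal in spleen. Of 25 cell cycle genes, 22 were called lower in spleen and none higher, with Aurkb, a mitotic kinase, at -3.06 (SE 0.24; adjusted p 0.000168). The mean level of that list was 0.40 to 2.53 on spleen arrays and 2.29 to 2.79 on marrow arrays. The list of 7 primary granule genes, markers of immature neutrophils, ran from 0.53 to 5.59 in spleen and from 4.74 to 5.39 in marrow, and 12 mature B cell genes from -0.90 to 2.63 and from -2.84 to -0.19. All 7 primary granule genes were above background on every array, and at least 24 of the 25 cell cycle genes were. The part of these cells in the pathway's difference was not tested.

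Genes next to the pathway gave a mixed picture between tissues. Of 16 other genes of sterol sensing and SREBP processing, 3 were called lower and 2 higher in spleen, with a median of -0.33. Among those lower were 2 subunits of NF-Y, Nfyb (-0.83, SE 0.22; adjusted p 0.0169) and Nfya (-0.52, SE 0.16; adjusted p 0.0314). Of 14 genes that use isoprenoids, 3 were called lower and 2 higher, with a median of 0.09. The 3 with the smallest p were Dhdds of dolichol synthesis (-1.19, SE 0.24), Coq2 of ubiquinone synthesis (0.95, SE 0.24) and Zmpste24, a protease of prenylated lamin A (-1.41, SE 0.36). Of 12 genes of sterol storage, oxidation and export, 5 were called higher in spleen and 2 lower, with a median of 0.69. Nr1h3, the oxysterol receptor LXR alpha, was higher by 2.71 (SE 0.43; adjusted p 0.00197), and the cholesterol exporter Abca1 by 2.50 (SE 0.45; adjusted p 0.00354), each in 8 of 8 pairs. Cyp27a1, which makes 27-hydroxycholesterol, was higher by 1.38 (SE 0.26; adjusted p 0.00414). Monocyte and macrophage markers, which such genes are known to accompany, averaged 0.26 to 2.66 over 9 genes on spleen arrays and -0.86 to 1.37 on marrow arrays, and their part was not tested.

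Did the high-fat diet change the pathway? No gene of the 26 passed the adjusted threshold for diet in spleen, in marrow or over both tissues, nor did any of 28783 features (0.00%). Over all 26 genes the tissues gave different counts, a difference that was tested gene by gene only. In marrow, 24 of 26 genes read higher on HFD, with a median difference of 0.46, against 0.11 over all features and 0.05 over those above background on all arrays. Of the latter, 9870 of 18008 read higher. At an unadjusted p under 0.05, 6 genes were higher and none lower, against 3.67% of all features and 2.07% of well-measured ones that were higher. In spleen, 15 of 26 read higher, against 10310 of 18008 well-measured features, and the median was 0.07. None of the 26 was higher at an unadjusted p under 0.05, against 2.64% and 1.29% of features, and none lower. Over both tissues, 24 read higher, against 10118 of 18008 well-measured features. The median was 0.23 and 5 reached that unadjusted threshold, against 8.41% and 6.20%. Within marrow, 8 genes were higher on HFD in all 4 genotypes, against 7.84% and 6.59% of features: Srebf2, Insig1, Hmgcs1, Mvd, Fdft1, Lss, Nsdhl and Dhcr7.

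**Figure D2:**
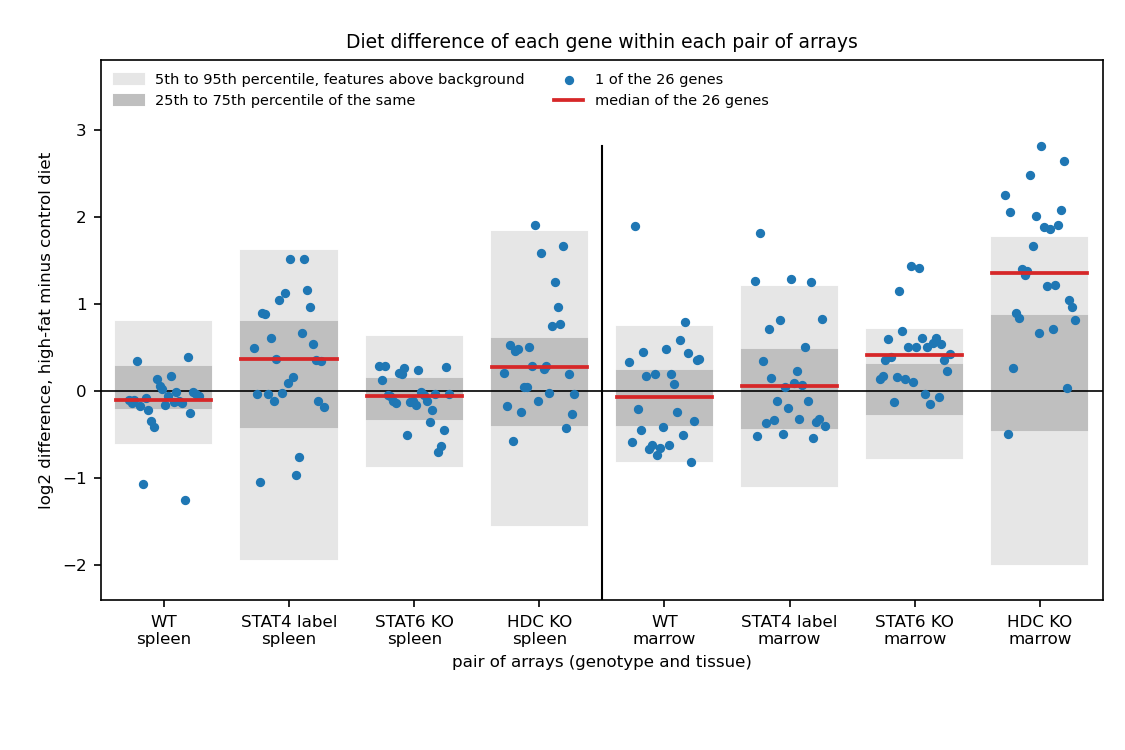
Log2 difference between high-fat and control diet (y axis) in each of the 8 genotype and tissue pairs (x axis), with 1 point per gene, the median of the 26 genes in red and grey bands for the spread of well-measured features. The HDC-/- marrow pair has a median of 1.36 and the STAT6-/- marrow pair 0.41, while the WT pairs have medians of -0.10 in spleen and -0.07 in marrow.

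The marrow differences were largest in 1 pair. In HDC-/- marrow 25 of 26 genes were higher on HFD, against 60.5% of well-measured features. The median was 1.36 against 0.24 for those features, and 17 genes were at least 2-fold higher, against 20.6%. The differences there reached 2.81 for Fdft1, 2.64 for Hsd17b7, 2.48 for Mvd and 2.25 for Srebf2. Without that pair, 16 of 26 genes had a higher mean on HFD, with a median of 0.15 against -0.02 for well-measured features, and 1 gene reached an unadjusted p under 0.05. Over the WT and STAT6-/- pairs alone, 21 of 26 had a higher mean, with a median of 0.18 against -0.03. The control-diet array of the HDC-/- pair is one of those that stood apart. The mean of 4 sex-linked genes was -6.77 on the control diet and -2.15 on HFD in that pair, and it moved with diet in the same way in HDC-/- spleen (-7.21 and -2.27) and in the STAT4-/- label (-5.78 and -1.95 in spleen, -5.28 and -1.87 in marrow). On the 8 arrays of WT and STAT6-/- it was -2.34 to -1.70. In these 4 pairs the diets and the sex-linked signal cannot be told apart. The mean of that list joins genes that moved opposite ways. In the marrow fit 3 of its 4 genes read higher on HFD, by up to 3.83, and the other was at -1.16. Over the HDC-/- marrow pair, 11 pro-B and pre-B cell genes had a mean level of 1.46 on the control diet and -4.09 on HFD, 9 monocyte and macrophage genes 1.37 and -0.26, while the cell cycle list read 2.70 and 2.72. The part of other cells in the difference was not tested.

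In the other marrow pairs the medians were smaller. In WT marrow 13 of 26 were higher (42.3% of well-measured features), 1 of them at least 2-fold (2.20%). In the STAT4-/- label 14 were higher (50%), 4 of them at least 2-fold (7.67%). In STAT6-/- marrow 22 were higher, against 51.7% of well-measured features. The median there was 0.41 against 0.02 for those features, and 3 genes were at least 2-fold higher, against 1.28%. Those 3 were Fdps (1.44), Sqle (1.41) and Mvk (1.15). In that pair the cell cycle list read 2.42 and 2.79 and the primary granule list 4.74 and 5.32 on the control diet and on HFD, and their part was not tested.

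In WT spleen 6 of 26 genes were higher, against 53.4% of well-measured features, and none was 2-fold higher (2.75%). In STAT6-/- spleen 8 were higher, against 38.7%, and none 2-fold (1.48%). The STAT4-/- label pair had 17 higher, against 60.7%, and 5 at least 2-fold, against 16.9%. The HDC-/- pair had 18 higher, against 57.5%, and 4 at least 2-fold, against 14%. Both 2-fold shares were near the background of their pair. From the control diet to HFD, the primary granule list read 3.56 and 5.59 in the STAT4-/- label pair and 0.53 and 4.79 in the HDC-/- pair. The cell cycle list read 1.24 and 2.53, and 0.40 and 2.02, and the part of either list was not tested.

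**Figure D3:**
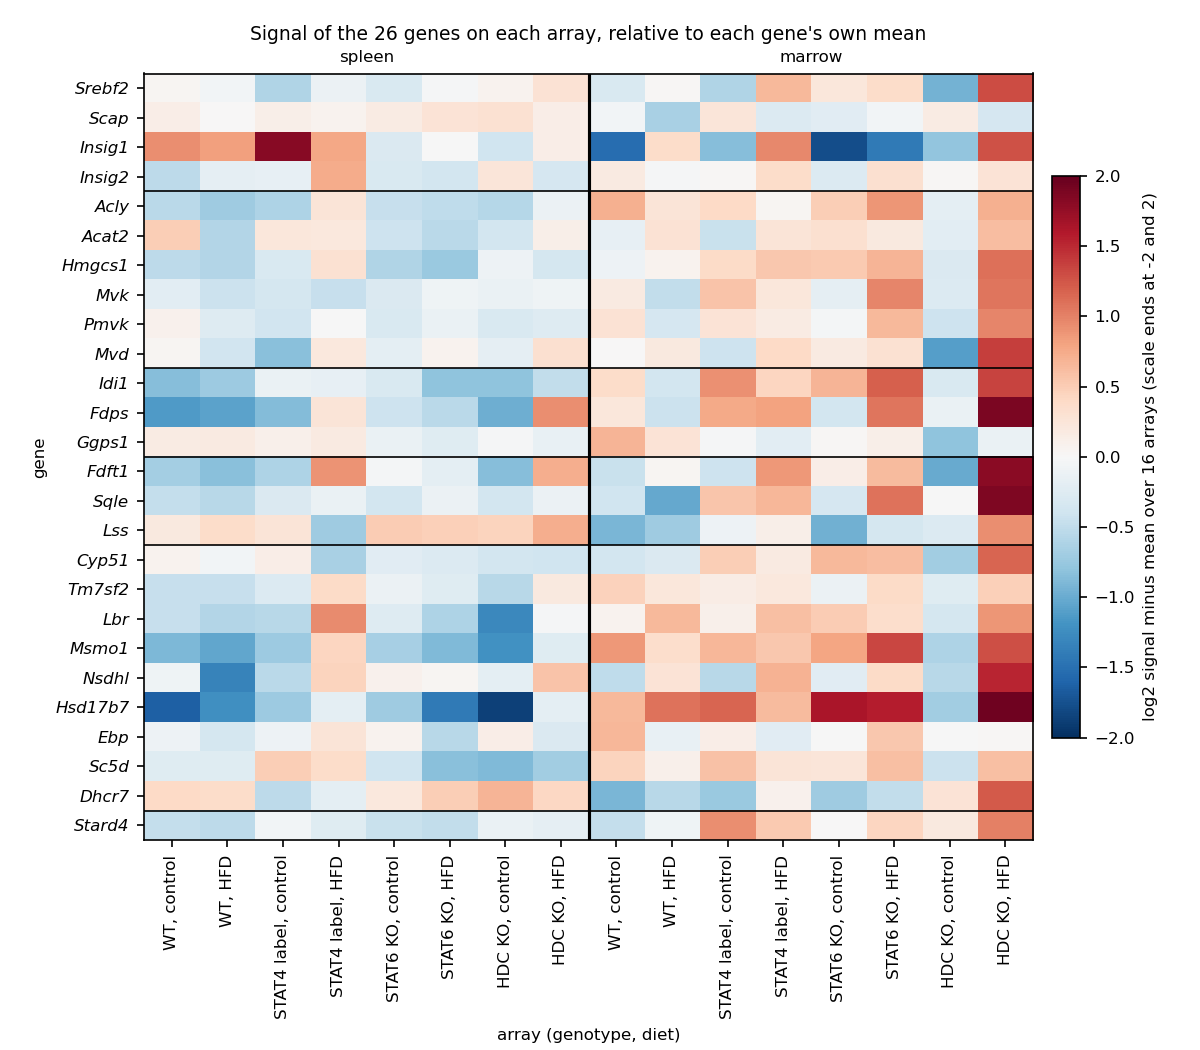
Log2 signal of each of the 26 genes (rows, ordered along the pathway, with lines between roles) on each of the 16 arrays (columns), as the deviation from that gene's own mean over all arrays, red above and blue below. The HDC-/- high-fat marrow array is above the mean for most rows, with Fdft1 at 1.93 on the level scale, and Hsd17b7 and Msmo1 are mostly blue in spleen and red in marrow, with the HDC-/- control-diet marrow array blue for both.

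Of the genes that control SREBP2, Insig1 had the smallest diet p in marrow. It read higher on HFD by 1.89 in WT, 1.81 in the STAT4-/- label, 0.36 in STAT6-/- and 2.06 in HDC-/- marrow, from the levels given above. The HFD value of STAT6-/- (-2.42) lay within the control-diet range. The mean difference was 1.53 (SE 0.35; 2.89-fold; unadjusted p 0.00142; limma adjusted p 0.696). In spleen the Insig1 difference was -0.08 (SE 0.35), with pair differences of -0.10, -1.04, 0.29 and 0.53. The difference between the 2 diet terms was -1.61 (SE 0.50; unadjusted p 0.00889; adjusted p 1), the 1 gene of the 26 to reach an unadjusted p under 0.05 in that comparison. Without the HDC-/- control-diet marrow array the marrow difference of Insig1 was 1.35, the lowest value with any single array left out. Over 13 other settings of processing, model or groups of arrays left out, that difference ran from 1.13 to 1.53.

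Srebf2 read 0.20, -0.09, 0.73 and -0.43 on the control diet and 0.53, 1.16, 0.87 and 1.82 on HFD in marrow of WT, STAT4-/- label, STAT6-/- and HDC-/-. Each HFD value was above its own control, and the 2 diets overlapped across genotypes. The difference was 0.99 (SE 0.34; unadjusted p 0.0155; adjusted p 0.696), and a second probe gave 0.68. Over the same 13 settings the Srebf2 difference ran from 0.23 to 0.99 in marrow and from 0.16 to 0.61 over both tissues. Scap, 1 of the 2 genes that read lower in marrow on HFD, read 1.87, 2.17, 1.70 and 2.09 on the control diet (mean 1.96, SD 0.22, n = 4) and 1.28, 1.66, 1.87 and 1.60 on HFD (mean 1.60, SD 0.25, n = 4), with overlap. The difference was -0.36 (SE 0.23; limma adjusted p 0.696). Insig2 differed by 0.25 (SE 0.28).

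**Figure D4:**
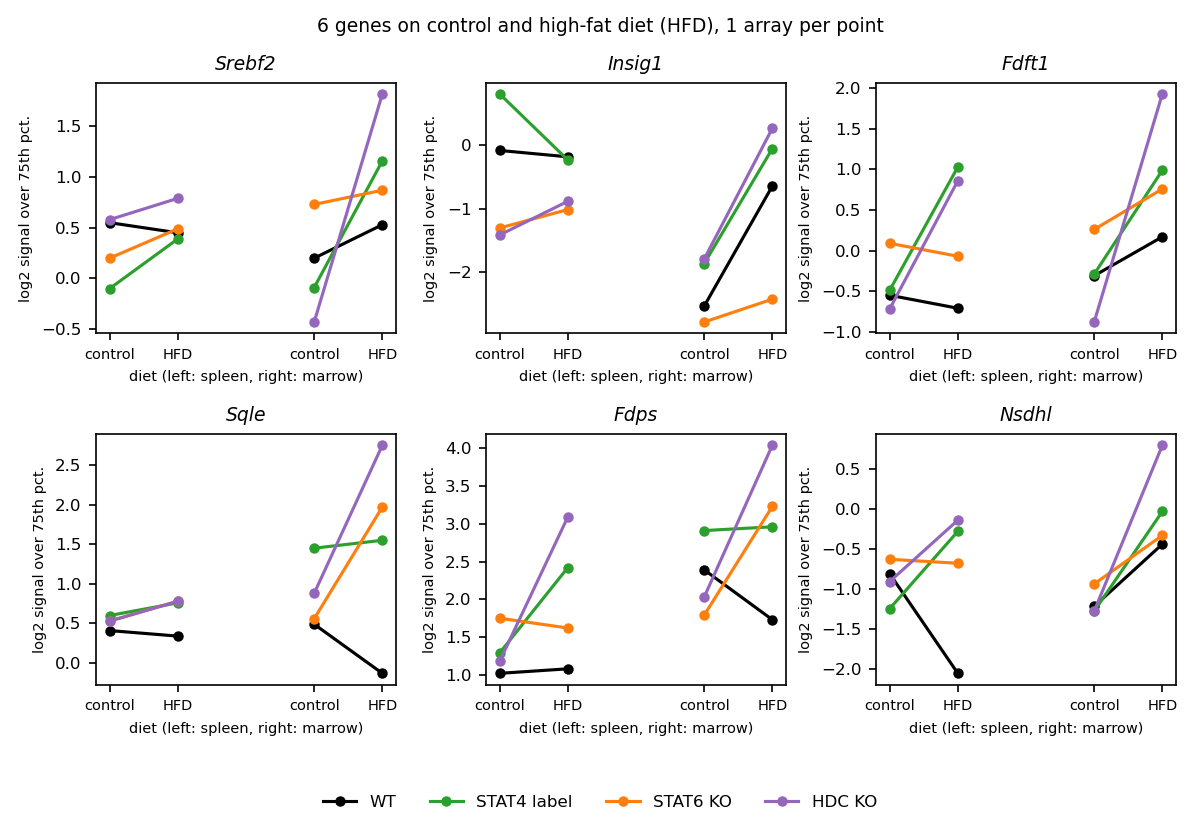
Log2 level (y axis) of Srebf2, Insig1, Fdft1, Sqle, Fdps and Nsdhl on the control and the high-fat diet (x axis, spleen left and marrow right), 1 point per array and 1 line per genotype. Insig1 in marrow is higher on HFD by 1.81 to 2.06 in 3 genotypes and by 0.36 in STAT6-/-, while Sqle differs by 1.41 in STAT6-/-, 1.88 in HDC-/- and -0.62 in WT.

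Among the enzymes, Nsdhl, a dehydrogenase of sterol demethylation on the X chromosome, read -1.22, -1.28, -0.94 and -1.28 in control-diet marrow of WT, STAT4-/- label, STAT6-/- and HDC-/-. On HFD it read -0.44, -0.03, -0.33 and 0.80. The 2 diets did not overlap in marrow, and the difference was 1.18 (SE 0.39; unadjusted p 0.0122; adjusted p 0.696). A second Nsdhl probe gave 0.61, and over the same 13 settings the marrow difference ran from 0.70 to 1.18. In spleen the WT pair differed by -1.25 and the others by -0.04 to 0.96.

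Fdft1, squalene synthase, which commits isoprenoids to sterol, was higher on HFD in marrow by 0.48, 1.28, 0.50 and 2.81 in the same order. Its levels were -0.31, -0.29, 0.26 and -0.88 on the control diet and 0.17, 0.99, 0.76 and 1.93 on HFD, and the 2 diets overlapped only through the STAT6-/- control and the WT HFD array. The marrow difference was 1.27 (SE 0.45; unadjusted p 0.0184; adjusted p 0.696). In spleen it was 1.51 higher in the STAT4-/- label and 1.58 higher in HDC-/-, and 0.16 lower in WT and STAT6-/- (-0.16 in each). Fdft1 also had the smallest p over both tissues (0.98, SE 0.32; unadjusted p 0.0117; adjusted p 0.388). Its second probe, above background on 5 arrays, gave 0.31 in marrow and -0.83 in spleen. Over the same 13 settings the Fdft1 difference over both tissues ran from 0.16 to 0.98.

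Mvd, which makes isopentenyl diphosphate, was higher in marrow by 0.90 (SE 0.40; unadjusted p 0.0461), and Dhcr7 by 0.59 (SE 0.24; unadjusted p 0.0331), each in all 4 genotypes. Sqle, squalene epoxidase, read 0.49, 1.45, 0.56 and 0.88 on the control diet and -0.13, 1.55, 1.97 and 2.75 on HFD, with a difference of 0.69 (SE 0.38; unadjusted p 0.0978). WT Sqle was thus the lowest of the 8 marrow values on HFD, while WT Insig1 read higher on that diet. Fdps gave marrow pair differences of -0.66, 0.05, 1.44 and 2.01 in the same order, from control levels of 2.39, 2.91, 1.79 and 2.03. Acly (0.12, SE 0.30), Ggps1 (0.04, SE 0.24) and Sc5d (0.19, SE 0.28) had the smallest differences among the genes that read higher. Ebp, a sterol isomerase, read 3.92, 3.38, 3.24 and 3.25 on the control diet and 3.10, 3.02, 3.79 and 3.27 on HFD, a difference of -0.15 (SE 0.28). Fdps differed by 0.71 (SE 0.47). The differences of Acat2, Hmgcs1, the mevalonate kinases Mvk and Pmvk, Idi1, Lss, Cyp51, the sterol reductase Tm7sf2, Lbr, Msmo1, Hsd17b7 and Stard4 lay between 0.24 (Idi1) and 0.62 (Hsd17b7), none at an unadjusted p under 0.05.

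For spleen, the smallest p among genes higher on HFD belonged to Fdps (0.74, SE 0.47), Lbr (0.57, SE 0.36) and Fdft1 (0.69, SE 0.45), and among those lower Ebp (-0.24, SE 0.28), Cyp51 (-0.24, SE 0.35) and Acat2 (-0.18, SE 0.29), with limma adjusted p of 0.773 or more. Fdps levels were 1.02, 1.29, 1.75 and 1.18 on the control diet and 1.08, 2.42, 1.62 and 3.09 on HFD. Lbr, a sterol reductase that also anchors the nuclear lamina, read 4.18, 4.08, 4.39 and 3.36, and 4.06, 5.59, 4.03 and 4.61. Every gain above 1 log2 unit lay in the STAT4-/- label or the HDC-/- pair. With WT and STAT6-/- arrays only, the values turned to -0.04 for Fdps, -0.24 for Lbr and -0.16 for Fdft1. Cyp51, the lanosterol demethylase, read -1.36, -1.31, -1.66 and -1.81 on the control diet and -1.49, -2.08, -1.71 and -1.83 on HFD. Cyp51 and Stard4 were the 2 genes lower in all 4 spleen pairs, against 3.41% of all features. The Stard4 pair differences were only -0.06, -0.18, -0.03 and -0.04, and its second probe gave 0.57 in spleen. Ebp read 3.15, 3.15, 3.33 and 3.39, and 2.90, 3.51, 2.70 and 2.97. Acat2, a cytosolic thiolase, read -2.99, -3.25, -3.90 and -3.85, and -4.06, -3.27, -4.02 and -3.37, so that both genes overlapped between diets.

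The neighbouring lists held about as many genes that read higher as lower on HFD in marrow. Of the 16 other genes of sterol sensing, 7 read higher on HFD in marrow, with a median of -0.02, none was called, and the smallest p on either side were those of Srebf1, the gene of SREBP1 (0.40, SE 0.26; adjusted p 0.696), and Nfya (-0.20, SE 0.22; adjusted p 0.782). Of 14 isoprenoid-using genes 7 read higher (median 0.04), with Fntb, a farnesyltransferase subunit, at 0.69 (SE 0.34) and Coq2 at -0.54 (SE 0.34). Of 12 genes of storage and export 7 read higher (median 0.10), with Soat1, which esterifies cholesterol, at 0.70 (SE 0.28; unadjusted p 0.032; adjusted p 0.696) and Nr1h3 at -0.76 (SE 0.61). Of 25 cell cycle genes 12 read higher in marrow (median 0.00), and in spleen all 25 did (median 0.76), with none called. In spleen, the sterol sensing list had Tmem97, an endoplasmic reticulum protein of sterol handling, at 0.46 (SE 0.27) and Mylip, a ubiquitin ligase of lipoprotein uptake, at -0.41 (SE 0.32), each with an adjusted p of 0.773.

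Did genotype matter? None of the 26 genes was called for any genotype against WT by limma, against 0.0174% of features for the STAT4-/- label, 0.0313% for STAT6-/- and 0.153% for HDC-/-, nor for HDC-/- against STAT6-/- (0.0104%). STAT6-/- and HDC-/- arrays lie on other slides than WT, so slide and genotype cannot be told apart there. The median over the 26 genes was 0.30 for the STAT4-/- label, 0.18 for STAT6-/- and 0.17 for HDC-/-, against 0.10, 0.04 and 0.00 for well-measured features. An unadjusted p under 0.05 was reached by 1, 1 and 5 genes in that order, against 9.94%, 6.83% and 10.9% of all features in either direction. These comparisons share the WT arrays. Of the 25 cell cycle genes, 25, 25 and 23 read higher than in WT (medians 0.76, 0.64 and 0.45), none called, and the 12 mature B cell genes had medians of -0.96, -0.44 and 0.10. In the same order, 9 erythroid genes had medians of 1.06, 1.71 and 0.64. The medians of 10 natural killer cell genes were -1.48, -0.97 and -0.28, again with none of either list called. The part of these 4 lists was not tested. Insig1 was lower in STAT6-/- by 1.02 on the log2 scale (-1.02, SE 0.35; 4 of 4 pairs; unadjusted p 0.0156; adjusted p 0.548). Sqle, with the smallest p on the other side there, was at 0.68 (SE 0.38; adjusted p 0.828). Dhcr7 was higher in HDC-/- by 0.83 (SE 0.24; 4 of 4 pairs; adjusted p 0.256) and Ggps1, which makes geranylgeranyl diphosphate, lower (-0.60, SE 0.24; adjusted p 0.408). Stard4 in the STAT4-/- label was at 0.68 (SE 0.25; adjusted p 0.462) and Ggps1 at -0.31 (SE 0.24; adjusted p 0.685). A second Ggps1 probe, above background on all 16 arrays, gave 0.02 for HDC-/- and 0.07 for the STAT4-/- label. A second Stard4 probe gave 0.26 for that label.

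A second model, with every pairwise term, asked whether the diet difference itself depended on genotype. No gene of the 26 was called for the STAT4-/- label or STAT6-/- (0.00% of features each) or for HDC-/- (0.00695%). For HDC-/-, 25 of 26 differences were above 0, against 10911 of 18008 well-measured features. The median was 0.98 against 0.22 for those features, and 6 genes were higher at an unadjusted p under 0.05, against 6.32%. Fdft1 had the smallest p (2.04, SE 0.53; unadjusted p 0.00531; adjusted p 0.261). The HDC-/- term rests on the 2 control-diet arrays of low Y-linked signal, 1 of them nearer to spleen, across which the sex-linked and pro-B values above also changed, and this model was not fitted without them. For STAT6-/- the median was 0.20 against -0.02, with the smallest p that of Mvk (1.12, SE 0.59; adjusted p 0.973). For the STAT4-/- label it was 0.48 against 0.16, with the smallest p that of Nsdhl (1.34, SE 0.57; adjusted p 0.951).

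Correlations among the 26 genes were computed within each tissue. Over the 325 pairs of genes, the median Pearson r across 8 arrays was 0.53 in marrow, with 88.0% of pairs above 0, and 0.21 in spleen, with 62.2%. Without the array that stood apart in each tissue the medians were 0.48 and 0.10. The HDC-/- HFD marrow array, where the 26 genes had their highest mean level (1.42), was kept in both. No such correlations are given for other features, so the values cannot be read as particular to the pathway. The arrays share slides and scaling, and these values are a description with no test.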

How the data were processed

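The deposited files hold the intensity of each spot on 16 Agilent one-colour arrays. Per the file headers, the authors used Agilent Feature Extraction 11.0.1.1, which writes a background-subtracted intensity with no scaling between arrays. Of 39429 probes, 27242 (69.1%) matched a symbol by accession or name in the RefSeq table, and 305 with no usable spot on some array were left out.

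Values were log2 of the intensity, averaged over usable spots, minus the 75th percentile of the array. The brightest probe stood for a gene, which had to exceed background clearly on 2 or more arrays. The fit (limma 3.58.1 in R 4.3.3) had a mean per genotype and tissue and a diet term per tissue (6 residual degrees of freedom), every test two-sided and p adjusted by Benjamini-Hochberg across 28783 features. Diet by genotype used all pairwise terms (3 residual degrees of freedom). Arrays with the same scan date in the file headers were taken as 1 slide. By that grouping both diets of a genotype in a tissue share a slide, with 4 slides in all. In the main fit, p-values measure how the diet difference varies between genotypes within a tissue, not the spread between repeats of a pool. For the tissue and genotype comparisons, that spread leaves out how far tissue differences vary between genotypes. In the diet by genotype fit, they measure what all pairwise terms leave. The design of 1 array per combination limits the precision.

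The pathway and the lists were chosen with earlier results of these data known, although the rule for the 26 genes uses no values. All 26 genes are named. Per-array values are given for genes called between tissues or genotypes (3 smallest p on each side) and, for diet, for the 3 smallest p on each side. Values of Sqle, Mvk and Fdps in marrow, and of Lss and Dhcr7, were chosen after they were seen. Of other lists, up to 3 called genes, or the smallest p on each side, are named. The fits were also tested on simulated data. Alternatives of scaling, background, filter, probe choice, prior, model, slide and arrays left out were tried. Normexp (offset 50) used median spot and background signals. Figures were drawn with matplotlib 3.10.9. Some genes of this pathway are not reported here.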

Additional observations from a re-analysis of the deposited data

Results flagged for a closer look

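Lss, the cyclase that forms lanosterol, read -4.62 on the HFD spleen array labelled STAT4-/-, with the nearest of the 8 spleen arrays at -3.71. It was the 1 value flagged as far from the others among 52 groups of arrays examined (each gene in each tissue), where chance flags about 5% of groups. That array is the spleen array that correlated more closely with marrow, where Lss ran from -4.86 to -2.98.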

How the results depend on the processing

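Of 26 genes, 8 were called between tissues, against 31.9% of all features. The count was 8 to 11 under other scalings, background, filters, probe choices, priors and models, where 29.4% to 53.2% of features were called, the 11 and the 53.2% both under normexp. It was 14 when the 2 arrays that resembled the other tissue were left out, 2 without the 4 arrays of low Y-linked signal, and 3 to 12 with single arrays left out. Hsd17b7 and Msmo1 kept their call in every setting run. The count of genes higher in marrow on HFD at an unadjusted p under 0.05 (6) was 1 with WT and STAT6-/- only, 1 without the 2 arrays, 1 without the 4 arrays, and 1 to 8 with single arrays left out. It was 1 without either HDC-/- marrow array and 3 without either marrow array labelled STAT4-/-. These marrow counts were added after the data were seen. With normexp background, 1 gene was called for diet by genotype, with 567 features called, and Ggps1 turned to 0.00 for HDC-/- and 0.06 for the STAT4-/- label. Fdft1 in spleen on HFD turned to -0.07 with the mean of all probes. With WT and STAT6-/- only, and also without the 4 arrays, Fdps, Lbr and Fdft1 in spleen turned to -0.04, -0.24 and -0.16. With single arrays left out, Acat2 in spleen ran from -0.40 to 0.11 and Ebp in marrow from -0.39 to 0.07. The causes were not tested. Diet by genotype was not run for WT and STAT6-/- only, without the 4 arrays, with shared genotype terms or with the slide block. The replicate number (1 on every spleen array, 2 on every marrow array) could not serve as a block, because it is the tissue term. Arrays were matched by genotype, tissue and diet through the model's terms instead. With a mean per genotype and tissue, each diet term in the main fit is the mean of the differences within its pairs. Dhcr7, Lss and Acat2, with signals far below the 75th percentile, lie nearest to background.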
